A study of Homo sapiens with 4 samples.

Results

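The tumor necrosis factor (TNF) ligands, their receptors and the TRAF adaptors were examined in OVCAR5 cells carrying a control hairpin or a hairpin against FOXK2, a forkhead transcription factor. Members were taken by gene symbol: every symbol that starts with TNFSF or TNFRSF and a number, together with TNF, LTA, LTB, LTBR, FAS, FASLG, NGFR, CD40, CD27, CD70, EDA2R and the TRAF genes from TRAF1 to TRAF6. This rule found 52 of the 56655 symbols in the count tables, and 39 of the 52 had enough reads to be tested, among 16417 tested genes. The 52 were 16 ligands, 7 receptors with a death domain, 4 decoy or soluble receptors, 16 other receptors, 6 TRAF adaptors and 3 antisense or read-through transcripts.

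OVCAR5 (OVCAR-5 in the labels) is an established human line that the submitters describe as high grade serous ovarian cancer from ascites. All cells were grown in RPMI with fetal bovine serum and were stably transduced with a lentiviral hairpin vector under puromycin selection, so both groups carry a vector. The control group (shCtrl, 2 libraries) carries a nontargeting hairpin and the knockdown group (shFOXK2, 2 libraries) a hairpin against FOXK2. The labels do not name the FOXK2 hairpin, and the figure legends of the study give it as shFOXK2-2 for its RNA sequencing. Polyadenylated RNA was sequenced, and the libraries are described as biological duplicates of a single cell line, so the p-values describe the spread between cultures of that line.

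TNF ligands are membrane proteins that assemble as trimers, and many are cut from the cell surface into a soluble form. A ligand clusters its receptors, and the inner part of the receptor then decides what is recruited. Receptors with a death domain bind FADD or TRADD and can lead to caspase activation, while most others bind TRAF adaptors and activate NF-κB and JNK kinases. Decoy receptors take up ligand without a working inner domain. Several members, LTB, TRAF1 and TNFRSF9 among them, are themselves genes that NF-κB is known to induce.

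The libraries held 14284005 to 21950873 counts, and 3 counts, used here as the detection floor, corresponded to 0.134 to 0.211 CPM, the count divided by the TMM-scaled library total. FOXK2 itself (chromosome 17, 82519713 to 82644662, plus strand, hg38) had 1796 and 1499 shCtrl counts against 1086 and 1084 shFOXK2 counts. In CPM these were 86.9 ± 9.10 and 67.9 ± 11.9 (mean ± SD, n = 2 each), and the log2 fold change of -0.36 (SE 0.25) did not pass the test (edgeR quasi-likelihood test, Benjamini-Hochberg adjusted p = 0.257). In CPM the groups did not overlap and shFOXK2 was lower, but the level of the targeted transcript did not check the labels with a call. Corrected for the base content of transcripts, as described further on, the FOXK2 value was -0.02 for adenine (edgeR adjusted p = 0.931) and -0.056 for GC. Across all genes 48.4% were called at an adjusted p under 0.05, with 25.7% higher and 22.7% lower in shFOXK2, and counts of called members are read against these shares. Epithelial markers, mostly keratins, summed to between 3436 and 4785 CPM in all libraries, but the adhesion gene CDH1 among them had 459 and 260 shCtrl counts against 13 and 24 shFOXK2 counts. Markers of serous ovarian tissue summed to 39.5 and 41.5 CPM in shCtrl and to 13.1 and 13.8 in shFOXK2. Among these WT1 (2 counts or fewer) and SOX17 (3 or fewer) were close to absent, while PAX8 was read in every library, at 156 to 351 counts. MUC16 had 397 and 145 shCtrl counts against 0 and 8 shFOXK2 counts, and FOLR1 had 175 and 153 against 41 and 65.

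Ligand transcripts were mostly lower in the knockdown. Of the 39 tested members, 19 were called lower and 5 higher, against 22.7% lower and 25.7% higher among all tested genes, and 15 were not called. With an additional limit of a 2-fold change, 17 members were lower and 3 higher, against 16.7% and 21.6% of all genes (38.3% in either direction). The CPM ranges of the groups did not overlap for 31 of the 39 members and for 75.4% of all tested genes. The median log2 fold change was -0.70 over the members and 0.04 over all genes. A gene that passed the low-count filter through the group where it is high had to differ, so these counts and medians describe the tested members and support nothing further. The ligands had the lowest median of the roles: 11 were tested, 8 were lower and 1 was higher, with a median of -2.73, which did not change with TNF placed at its bound.

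**Figure D1:**
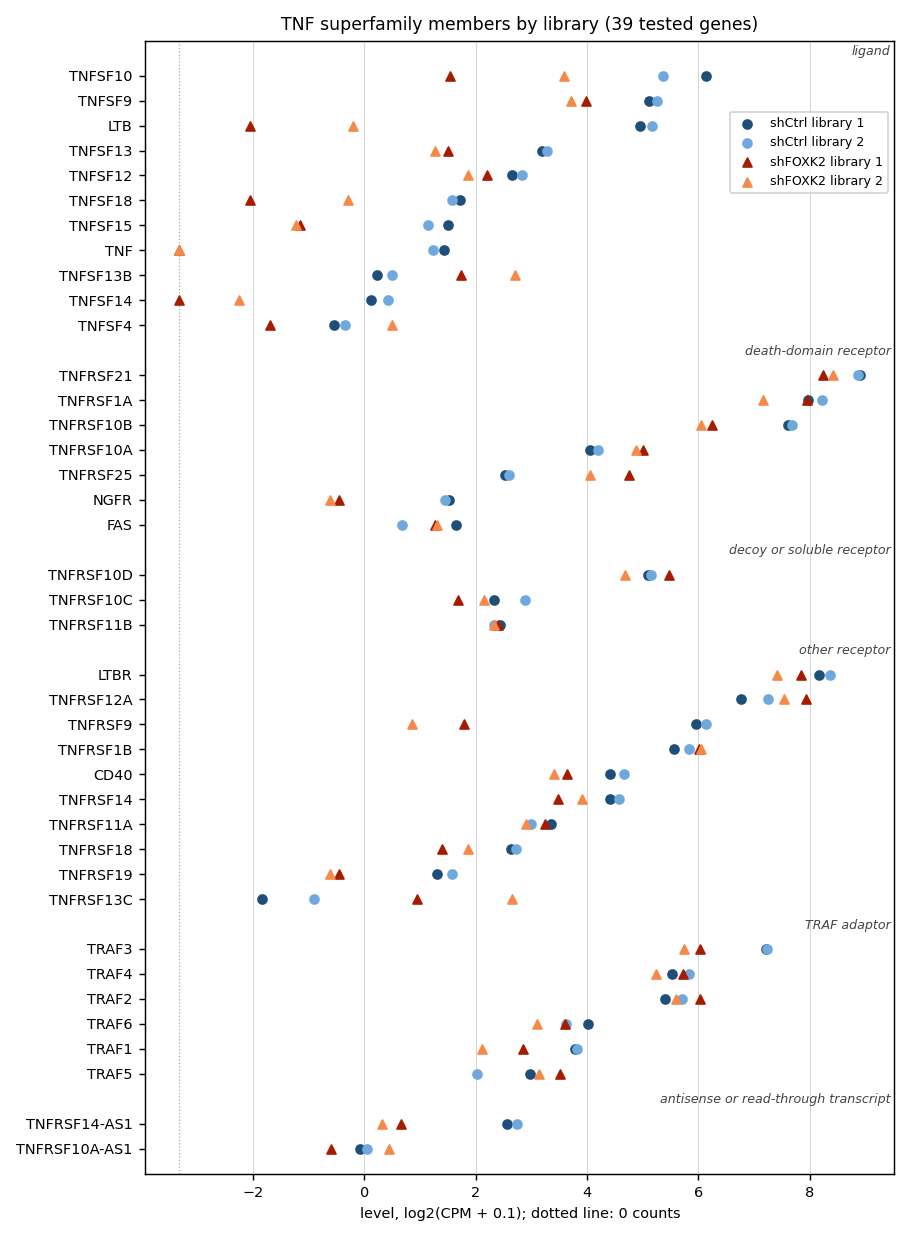
Level of the 39 tested members as log2(CPM + 0.1) on the horizontal axis, grouped by role; circles are the shCtrl and triangles the shFOXK2 libraries, and the dotted line marks 0 counts. Both triangles of LTB, TNFRSF9 and TNFSF10 sit far left of their circles, whereas those of TNFRSF25 and TNFRSF13C sit to the right.

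The start regions of 5 called members are shown first: LTB, TNFRSF9, TNFSF14, TRAF3 and TNF. They were picked from members with calls under all alternatives or with a known place in NF-κB signaling, and do not represent the members. TNFSF10, TNFSF15, TNFSF18 and TNFRSF19 also had calls under all alternatives. Their windows, not printed, held neither motif described here. The sequences are the 250 bases before the transcription start, 5′ to 3′ on the strand of the gene, from RefSeq (GRCh38.p14). Capitals mark matches to the NF-κB consensus or to TGTTTAC, the forkhead motif, and both strands were searched. In LTB the capitals are GTAAACA, the reverse complement of the forkhead motif, followed by the NF-κB match.
LTB, minus strand, chr6:31582426-31582675: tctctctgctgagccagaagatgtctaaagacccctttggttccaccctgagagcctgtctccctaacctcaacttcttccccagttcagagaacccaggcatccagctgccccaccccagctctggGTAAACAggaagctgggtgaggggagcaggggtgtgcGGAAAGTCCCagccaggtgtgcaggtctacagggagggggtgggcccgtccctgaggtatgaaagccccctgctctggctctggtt
TNFRSF9, minus strand, chr1:7940840-7941089: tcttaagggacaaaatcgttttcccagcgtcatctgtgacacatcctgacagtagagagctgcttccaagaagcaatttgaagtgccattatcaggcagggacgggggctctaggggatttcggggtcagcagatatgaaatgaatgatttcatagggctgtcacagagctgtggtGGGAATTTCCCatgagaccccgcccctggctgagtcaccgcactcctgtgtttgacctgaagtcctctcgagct
TNFSF14, minus strand, chr19:6670161-6670410: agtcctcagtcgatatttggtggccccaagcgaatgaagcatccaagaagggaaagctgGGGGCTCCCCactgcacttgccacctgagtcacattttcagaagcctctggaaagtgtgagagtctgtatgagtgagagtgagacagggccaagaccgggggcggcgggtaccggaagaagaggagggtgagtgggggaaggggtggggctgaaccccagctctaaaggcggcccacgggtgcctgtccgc
TRAF3, plus strand, chr14:102777199-102777448: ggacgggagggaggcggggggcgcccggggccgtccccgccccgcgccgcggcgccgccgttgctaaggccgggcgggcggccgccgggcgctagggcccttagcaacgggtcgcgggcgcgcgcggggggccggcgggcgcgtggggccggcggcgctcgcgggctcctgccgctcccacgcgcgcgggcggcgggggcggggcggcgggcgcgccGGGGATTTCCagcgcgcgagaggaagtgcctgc
TNF, plus strand, chr6:31575315-31575564: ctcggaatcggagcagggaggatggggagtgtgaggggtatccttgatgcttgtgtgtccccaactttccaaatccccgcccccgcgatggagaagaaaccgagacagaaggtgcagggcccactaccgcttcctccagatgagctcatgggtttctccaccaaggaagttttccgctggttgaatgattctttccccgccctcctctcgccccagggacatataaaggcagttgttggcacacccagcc

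Windows of 300 bases, from 250 before to 50 after the start, were found for 36 of the 52 members, giving 50 windows. The NF-κB consensus lay in 11 of these (22%) and in 5.91% of all 35116 promoter windows. The matches belonged to 9 members: LTB, LTA, TNFSF13, TNFSF14, TNFRSF9, TNFRSF14, TNFRSF25, FAS and TRAF3. Among them TNFRSF25 was called higher, FAS was not called and LTA was too low to test. Some genes have several windows, and some of those overlap, so the 50 are not independent. The windows of LTB nearly coincide, as do those of TNFSF14, and each of them counts among the 11. In TNFRSF9 a match on each strand overlapped, with first bases at -74 and -73 from the start, and in TRAF3 the match began at -33. TGTTTAC lay in the windows of a single member, LTB, where it began at -123 from the start that belongs to the printed window, and in 3.42% of all windows. These 7 letters do not overlap the NF-κB match, which began at -86. The TNF window held neither motif as spelled here, which says nothing of sites outside it. A match describes letters only, and binding was not measured in the files used here.

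LTB, lymphotoxin beta, which anchors lymphotoxin to the membrane for signaling through LTBR, had 689 and 575 shCtrl counts against 2 and 14 shFOXK2 counts. Its mean level went from 33.4 ± 3.49 to 0.455 ± 0.444 CPM, and the groups were far apart in spite of the spread between the shFOXK2 libraries. It fell by 6.09 on the log2 scale (SE 0.48, edgeR quasi-likelihood adjusted p = 1.66e-06). With shFOXK2 replicate 1 left out it fell by 5.45, and with shFOXK2 replicate 2 left out by 7.85. LTB (chromosome 6, 31580525 to 31582522) lies beside TNF (31575565 to 31578336), the founding cytokine of the family. TNF was read 58 and 36 times in shCtrl, or 2.42 ± 0.253 CPM, and not at all in either shFOXK2 library. Measured against the floor of 3 counts per library, averaged over the shFOXK2 libraries (0.188 CPM), TNF was at least 12.9-fold lower (edgeR quasi-likelihood adjusted p = 3.63e-05).

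TNFSF10 encodes TRAIL, which kills sensitive cells through the receptors TNFRSF10A and TNFRSF10B. It had 1566 and 659 counts in shCtrl against 40 and 217 in shFOXK2, so the libraries of each group spread widely but the groups did not overlap. Its mean was 55.6 ± 20.6 CPM in shCtrl and 7.37 ± 6.44 in shFOXK2, and it fell by 2.90 on the log2 scale (SE 0.50, edgeR adjusted p = 0.000409). Leaving out shFOXK2 replicate 1 gave -2.25 and leaving out shFOXK2 replicate 2 gave -4.33. TNFSF9, the ligand of the costimulatory receptor TNFRSF9, had 765 and 612 shCtrl counts against 224 and 236 shFOXK2 counts. Both shFOXK2 libraries were lower, and TNFSF9 fell by 1.34 (SE 0.27, edgeR adjusted p = 0.00129), from 36.2 ± 2.71 to 14.4 ± 1.97 CPM.

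TNFSF13 encodes APRIL, a B cell survival factor, and had 202 and 154 shCtrl counts against 39 and 42 shFOXK2 counts. It fell by 1.89 on the log2 scale (SE 0.34, edgeR adjusted p = 0.000572), and the libraries within each group were close. TNFSF15, the ligand of TNFRSF25, was read 61 and 34 times with the control hairpin and 5 and 6 times with shFOXK2. It fell by 2.82 (SE 0.49, edgeR adjusted p = 0.000428), with no overlap. TNFSF18, the ligand of TNFRSF18, had 71 and 46 shCtrl counts against 2 and 13 shFOXK2 counts, and fell by 2.73 (SE 0.54, edgeR adjusted p = 0.00108). The higher of its shFOXK2 libraries again was replicate 2. With shFOXK2 replicate 1 left out it fell by 2.10, and with shFOXK2 replicate 2 left out by 4.39.

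TNFSF14 encodes LIGHT, which binds LTBR and TNFRSF14, and had 22 and 20 shCtrl counts against 0 and 2 shFOXK2 counts. With so few reads in shFOXK2 its size is best given as the ratio of CPM from the summed counts, 17.8 (exact 95% interval 4.62 to 151, counting error only), and the call was lower (edgeR adjusted p = 0.000901). Its fitted log2 fold change was -3.28 when shFOXK2 replicate 1 was left out. When shFOXK2 replicate 2 was left out, the group stood at 0 counts and the fitted value of -7.29 is no measure of size. TNFSF13B, or BAFF, was the single ligand called higher, with 24 and 21 shCtrl counts against 46 and 117 shFOXK2 counts. It rose by 2.03 on the log2 scale (SE 0.43, edgeR adjusted p = 0.00172), and by 1.42 without shFOXK2 replicate 2. When fold changes were corrected for the adenine content of transcripts, described further on, the increase was 0.81 and no longer passed the test (edgeR adjusted p = 0.153). Corrected for GC content it was 1.16 (edgeR adjusted p = 0.0625). The remaining tested ligands were TNFSF12, or TWEAK, with a log2 fold change of -0.72 (edgeR adjusted p = 0.0934), and TNFSF4, with 0.35 (edgeR adjusted p = 0.676).

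**Figure D2:**
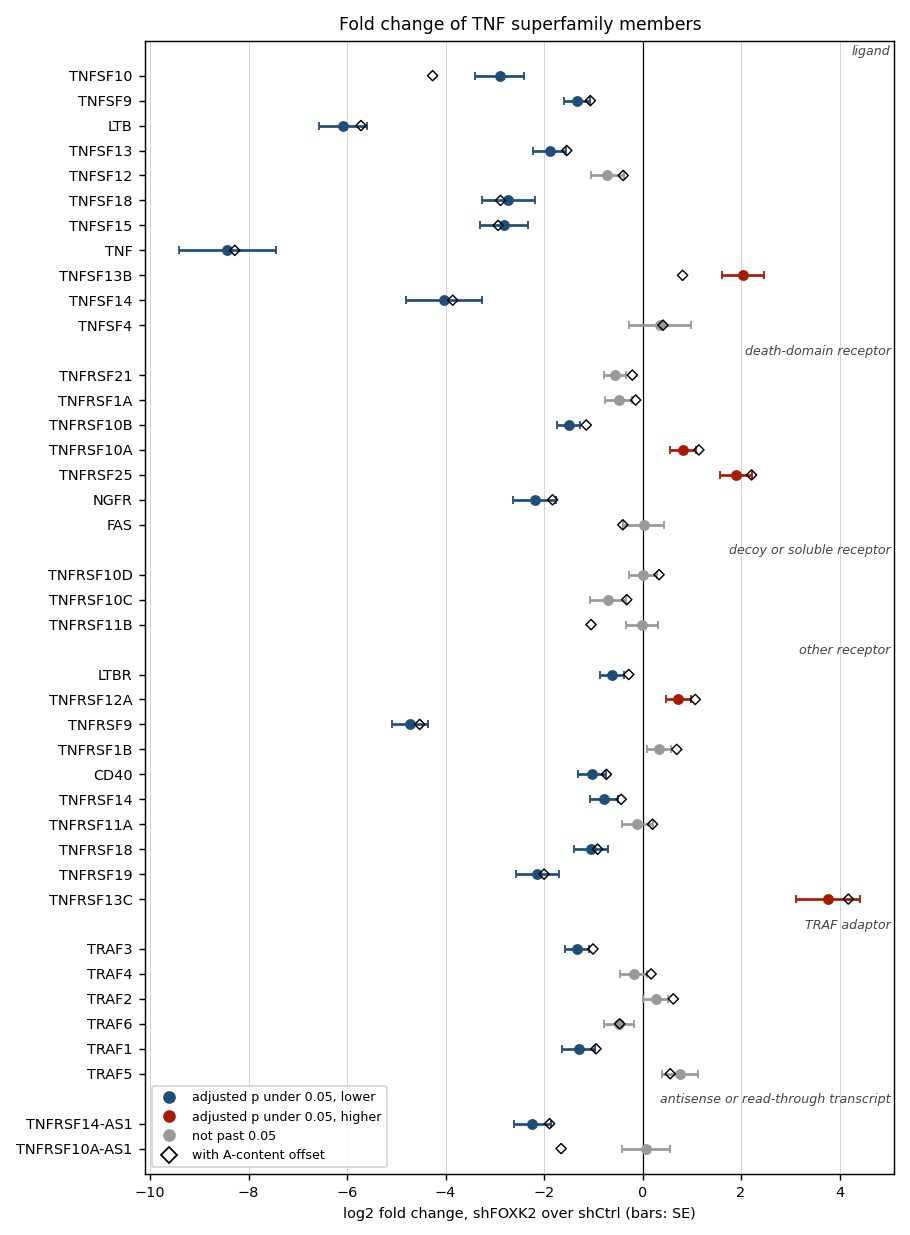
Log2 fold change (shFOXK2 minus shCtrl) of each tested member, by role; bars are 1 SE, blue and red points passed the test as lower and higher, gray points did not, and open diamonds are values corrected for adenine content. Of the ligands, 8 are blue and TNFSF13B alone is red, while the decoy or soluble receptors are gray. TNF is plotted at its fitted value, which rests on 0 counts in shFOXK2 and is no measure of size.

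The 7 death-domain receptors were all tested and moved in both directions: 2 were lower, 2 were higher and 3 were not called, with a median of -0.49. The 57.1% called was near the 48.4% of all tested genes, so the count is no result about these receptors. TNFRSF10B, the TRAIL receptor also called DR5 that stress of the endoplasmic reticulum is known to induce, had 4354 and 3279 shCtrl counts against 1071 and 1207 shFOXK2 counts. It fell by 1.5 on the log2 scale (SE 0.23, edgeR adjusted p = 0.000214), from 200 ± 6.43 to 70.8 ± 6.35 CPM. The replicates within each group were close. Its neighbor TNFRSF10A, the other signaling TRAIL receptor, went the other way, with 369 and 293 shCtrl counts against 453 and 536 shFOXK2 counts. It rose by 0.82 (SE 0.26, edgeR adjusted p = 0.0207), but the adjusted p was 0.0716 without shCtrl replicate 1, 0.0929 without shFOXK2 replicate 1 and 0.0581 without shFOXK2 replicate 2.

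TNFRSF25, or DR3, the receptor of TNFSF15, had 126 and 96 shCtrl counts against 384 and 300 shFOXK2 counts. It rose by 1.90 (SE 0.33, edgeR adjusted p = 0.000412), and both shFOXK2 libraries were well above both shCtrl libraries, while its ligand TNFSF15 fell. NGFR, the low affinity neurotrophin receptor, was read 62 and 42 times with the control hairpin and 9 and 10 times with shFOXK2, and fell by 2.19 (SE 0.43, edgeR adjusted p = 0.00114). TNFRSF1A, the main TNF receptor of most cells, had 5552 and 4804 shCtrl counts against 3528 and 2613 shFOXK2 counts, or 274 ± 35.6 and 196 ± 73.9 CPM. The groups barely separated and the log2 fold change of -0.49 (SE 0.27) was not called (edgeR adjusted p = 0.159). With a single library left out it ran from -0.96 (without shFOXK2 replicate 1) to -0.18. After correction for adenine content it was -0.14 (edgeR adjusted p = 0.615). TNFRSF21, or DR6, had 10713 and 7514 shCtrl counts against 4277 and 6186 shFOXK2 counts. It lay at the threshold, with -0.57 (SE 0.23, edgeR adjusted p = 0.0537, DESeq2 adjusted p = 0.0491), and 3 of 11 alternatives called it. With replicate number as a block the edgeR adjusted p of TNFRSF21 was 0.116. Corrected for adenine content its value was -0.21 (edgeR adjusted p = 0.378), and with a single library left out it ran from -0.69 to -0.51. FAS was read 24 to 68 times, with overlapping groups (log2 fold change 0.02, edgeR adjusted p = 0.972).

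None of the 3 tested decoy or soluble receptors was called by edgeR or by DESeq2, and 0 of them had an unadjusted edgeR p under 0.05. TNFRSF10D, a TRAIL receptor with a truncated inner domain, had 759 and 565 shCtrl counts against 628 and 467 shFOXK2 counts, and its groups overlapped (log2 fold change 0.01, SE 0.29, edgeR adjusted p = 0.981). TNFRSF11B, or osteoprotegerin, the soluble receptor that captures RANK ligand, had 74 to 118 counts and a log2 fold change of -0.01 (SE 0.33, edgeR adjusted p = 0.982). Corrected for adenine content it was -1.05 and was called (edgeR adjusted p = 0.0187). TNFRSF10C, a TRAIL receptor without an inner domain, had -0.70 (SE 0.36, edgeR adjusted p = 0.123), and -0.32 (edgeR adjusted p = 0.431) after correction for adenine content. With a single library left out it ran from -1.01 (without shFOXK2 replicate 2) to -0.48.

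Shares among the TRAIL receptors were compared per length, as CPM per kb of the canonical transcript. TNFRSF10B made up 71.7% and 69.9% of the summed level of the 4 TRAIL receptors in shCtrl and 41.5% and 43.8% in shFOXK2. TNFRSF10A made up 9.03% and 9.29% in shCtrl and 26.1% and 28.9% in shFOXK2. The sum itself was 68.1 and 73.1 CPM per kb in shCtrl and 45.4 and 37.9 in shFOXK2. In these libraries TNFRSF10B remained the most abundant TRAIL receptor, though its lead was smaller in the knockdown. These shares are given as values without a test, since an exact permutation of 2 against 2 libraries cannot go below p = 0.333.

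**Figure D3:**
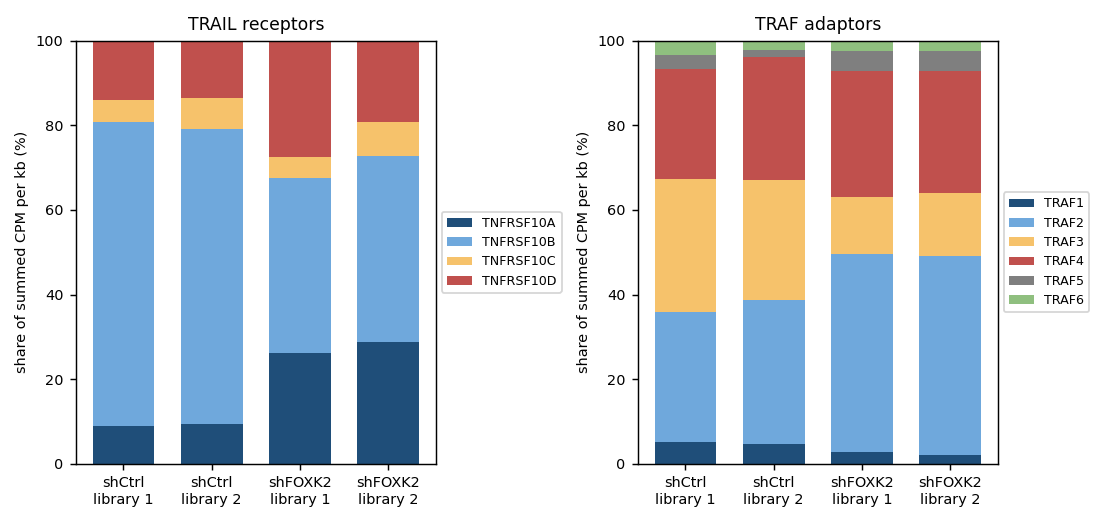
Share of the summed level (percent of CPM per kb) held by each TRAIL receptor (left) and each TRAF adaptor (right) in the 4 libraries; each stacked bar is a library and adds to 100%. The TNFRSF10B and TRAF3 shares are smaller, and the TNFRSF10A and TRAF2 shares larger, in both shFOXK2 libraries.

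Of the 16 other receptors 10 were tested, and 6 were lower, 2 higher and 2 not called, with a median of -0.71. The share called was 80% against 48.4% of all tested genes, and the filter limit given above holds here too. The deepest fall was in TNFRSF9, or 4-1BB, a costimulatory receptor best known from T cells and inducible through NF-κB. It had 1386 and 1126 shCtrl counts against 48 and 31 shFOXK2 counts, or 66.1 ± 5.67 and 2.54 ± 1.18 CPM, and fell by 4.72 on the log2 scale (SE 0.36, edgeR adjusted p = 1.23e-06). Its ligand TNFSF9 fell too, as given above. TNFRSF19, or TROY, was read 53 and 46 times with the control hairpin and 9 and 10 times with shFOXK2, and fell by 2.14 (SE 0.44, edgeR adjusted p = 0.00143). CD40, which activates NF-κB through TRAF adaptors, had 473 and 407 shCtrl counts against 177 and 191 shFOXK2 counts. It fell by 1.02 (SE 0.28, edgeR adjusted p = 0.00926), and the adjusted p was 0.0508 without shFOXK2 replicate 2. TNFRSF18, or GITR, had 136 and 105 shCtrl counts against 36 and 64 shFOXK2 counts, and fell by 1.05 (SE 0.35, edgeR adjusted p = 0.0229). Its adjusted p was 0.0522 without shCtrl replicate 2 and 0.0681 without shFOXK2 replicate 1.

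Both receptors of TNFSF14 were lower by smaller amounts. LTBR, the lymphotoxin beta receptor, had 6414 and 5272 shCtrl counts against 3271 and 3087 shFOXK2 counts. It fell by 0.62 (SE 0.24, edgeR adjusted p = 0.0462), and its log2 fold change was -0.28 (edgeR adjusted p = 0.204) after correction for adenine content. TNFRSF14, or HVEM, had 473 and 381 shCtrl counts against 157 and 272 shFOXK2 counts, and fell by 0.79 (SE 0.29, edgeR adjusted p = 0.0364), with -0.43 (edgeR adjusted p = 0.176) after that correction. With replicate number as a block the edgeR adjusted p was 0.0801 for LTBR and 0.0573 for TNFRSF14, so both calls were lost there too. Leaving out shCtrl replicate 2 (edgeR adjusted p = 0.0817) or shFOXK2 replicate 2 (0.288) ended the LTBR call, and leaving out shCtrl replicate 2 (0.0579) or shFOXK2 replicate 1 (0.194) the TNFRSF14 call.

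Receptors that rose were TNFRSF12A and TNFRSF13C. TNFRSF12A, or Fn14, the receptor of TWEAK, had 2410 and 2434 shCtrl counts against 3470 and 3366 shFOXK2 counts, or 130 ± 30.8 and 214 ± 41.7 CPM. It rose by 0.72 (SE 0.26, edgeR adjusted p = 0.0317), but by 0.47 (adjusted p = 0.202) without shCtrl replicate 1 and 0.49 (adjusted p = 0.223) without shFOXK2 replicate 1. TNFRSF13C, the BAFF receptor, was read 4 and 7 times with the control hairpin and 26 and 113 times with shFOXK2. It rose by 3.77 (SE 0.65, edgeR adjusted p = 0.000432), and the range over the fits without a single library ran from 2.59 without shFOXK2 replicate 2 to 4.37 without shCtrl replicate 2. It was 3.16 without shCtrl replicate 1 and 4.36 without shFOXK2 replicate 1. BAFF and its receptor were thus higher together, both in few reads and both highest in shFOXK2 replicate 2.

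TNFRSF1B, the TNF receptor found mainly on immune and endothelial cells, had 1045 and 913 shCtrl counts against 921 and 1204 shFOXK2 counts. Both shFOXK2 libraries were higher once scaled to CPM, at 65.4 ± 0.987 against 51.9 ± 7.09, but the log2 fold change of 0.34 (SE 0.25) was not called (edgeR adjusted p = 0.279). After correction for adenine content it was 0.69 and was called (edgeR adjusted p = 0.00997). TNFRSF11A, or RANK, had 126 to 226 counts, overlapping groups and a log2 fold change of -0.10 (edgeR adjusted p = 0.808).

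The order of levels per length placed LTBR (144 CPM per kb), TNFRSF12A (133), TNFRSF21 (132) and TNFRSF1A (126) together at the top among receptors in shCtrl, with TNFRSF10B next, whose shCtrl replicate 2 stood at 51.1. These means of 2 libraries are close for the leading 4 receptors and were not tested against each other. In shFOXK2 the mean of TNFRSF12A was 219 CPM per kb, followed by LTBR at 93.6, TNFRSF1A at 90.2 and TNFRSF21 at 89.1. TNFRSF12A held 17.7% and 21.5% of the summed receptor level in shCtrl and 38.1% and 36.5% in shFOXK2. The summed receptor level was 625 and 721 CPM per kb in shCtrl and 655 and 519 in shFOXK2, so it overlapped between the groups. The summed ligand level did not overlap, at 107 and 99.8 CPM per kb in shCtrl and 17.5 and 23.6 in shFOXK2. LTB held 32.3% and 40.2% of the ligand level in shCtrl and 0.898% and 3.66% in shFOXK2.

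All 6 TRAF adaptors were tested, and TRAF1 and TRAF3 were lower while 4 were not called, with a median of -0.33. The 33.3% called was below the 48.4% of all tested genes, so the count is no result about the adaptors. TRAF3, which restrains the noncanonical NF-κB pathway by holding the kinase MAP3K14 for degradation, had 3315 and 2403 shCtrl counts against 923 and 969 shFOXK2 counts. It fell by 1.34 on the log2 scale (SE 0.24, edgeR adjusted p = 0.000574), from 149 ± 0.778 to 59.1 ± 8.24 CPM. TRAF1, an adaptor that NF-κB induces, had 304 and 225 shCtrl counts against 101 and 77 shFOXK2 counts, and fell by 1.29 (SE 0.33, edgeR adjusted p = 0.00612). TRAF2, which is recruited to TNF receptors and also to the stress sensor IRE1α, had 945 and 838 shCtrl counts against 924 and 882 shFOXK2 counts. Its log2 fold change was 0.26 (SE 0.26, edgeR adjusted p = 0.432), or 0.62 (edgeR adjusted p = 0.0186) after correction for adenine content. Its share of the TRAF level per length was 30.8% and 34.0% in shCtrl and 46.8% and 47.0% in shFOXK2, while that of TRAF3 was 31.3% and 28.3% in shCtrl and 13.6% and 15.0% in shFOXK2.

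TRAF4 had 1025 and 915 shCtrl counts against 751 and 689 shFOXK2 counts (log2 fold change -0.18, edgeR adjusted p = 0.598), and its CPM overlapped between the groups, as did those of TRAF2. TRAF6, which serves interleukin-1 and Toll-like receptors as well, had 360 and 197 shCtrl counts against 171 and 154 shFOXK2 counts. Both shFOXK2 libraries were lower by little, and the log2 fold change of -0.48 was not called (edgeR adjusted p = 0.224). With a correction for GC content it was -0.78 (edgeR adjusted p = 0.0307), and with that for adenine content -0.47 (edgeR adjusted p = 0.154). TRAF5 had 174 and 64 shCtrl counts against 161 and 159 shFOXK2 counts, so the shCtrl libraries differed more from each other than the shFOXK2 libraries did, although the CPM of the groups did not overlap. Its log2 fold change was 0.75 (edgeR adjusted p = 0.103), and no alternative that keeps all 4 libraries called it. With a single library left out it ran from 0.29 to 1.29 (without shCtrl replicate 1), and it was 0.90 without shFOXK2 replicate 2.

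The 13 members that did not pass the filter had at most 21 counts in any library. These were LTA, FASLG, CD70, TNFSF8, TNFSF11, TNFRSF6B, CD27, EDA2R, TNFRSF4, TNFRSF8, TNFRSF13B, TNFRSF17 and the read-through transcript TNFSF12-TNFSF13. No reads in any library were listed for 4 of them: TNFSF11, TNFRSF6B, TNFRSF13B and TNFSF12-TNFSF13. TNFRSF6B, the soluble decoy DcR3, and TNFSF12-TNFSF13 share exons with other genes on the same strand, so reads on the shared bases could not be assigned to them in the usual HTSeq setting. CD70, the ligand of CD27, had 11 and 6 shCtrl counts against 0 and 21 shFOXK2 counts, so its shFOXK2 libraries lay on both sides of shCtrl. Lymphotoxin alpha (LTA), the partner of LTB, was read at most once in any library, and Fas ligand (FASLG) had 0 in both shCtrl libraries and 1 and 2 in shFOXK2.

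Antisense and overlapping genes limit several values, since the strand setting of the counting was not given in the sources used here. TNFRSF14-AS1 overlaps exons of TNFRSF14 on the other strand and had 130 and 106 shCtrl counts against 21 and 21 shFOXK2 counts. It fell by 2.24 (SE 0.38, edgeR adjusted p = 0.000352), more than TNFRSF14 itself, and the difference between them was not tested. TNFRSF10A-AS1, opposite TNFRSF10A, had 8 to 23 counts and a log2 fold change of 0.07 (edgeR adjusted p = 0.918). Exons of TNFRSF10B, TNFRSF12A, TNFRSF25, LTBR, NGFR and FAS also overlap genes on the other strand (RHOBTB2, CLDN6, ESPN, SCNN1A, NGFR-AS1 and ACTA2). Reads of these pairs cannot be told apart if strand was not used. On the same strand, TNFSF12 and TNFSF13 share exons with TNFSF12-TNFSF13, FAS with STAMBPL1, and TNFRSF10C with other genes. Reads on those shared bases could be lost in the usual HTSeq setting, so the levels and shares of these members may be too low.

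Most listed genes known to be induced by TNF through NF-κB were lower. Of 32 such genes 29 were tested, and 26 were lower, none was higher and 3 were not called. Among all tested genes 22.7% were lower and 25.7% higher. The median was -2.70 against 0.04 for all genes. On the same counts DESeq2 called 26 lower and 0 higher, and at an unadjusted edgeR p under 0.05 the number higher was 0. With at least 10 counts in every library, 20 were tested and 17 called. The list was chosen with earlier results of these data known. Genes that passed the low-count filter through shCtrl alone had to differ, so these counts and medians support nothing further. The largest falls were in the chemokine genes CCL2, CXCL1 and CXCL8. CCL2 had 3115 and 2382 shCtrl counts against 9 and 16 shFOXK2 counts, and fell by 7.54 on the log2 scale (SE 0.35, edgeR adjusted p = 6.8e-08). CXCL1 had 3322 and 2543 shCtrl counts against 19 and 8 shFOXK2 counts, and fell by 7.48 (edgeR adjusted p = 2.19e-07). CXCL8 had 2984 and 1263 shCtrl counts against 20 and 4 shFOXK2 counts, and fell by 7.10 (edgeR adjusted p = 1.47e-06). Leaving out shFOXK2 replicate 1 gave -8.45 for CXCL1 and -8.90 for CXCL8, and leaving out shFOXK2 replicate 2 gave -6.87 and -6.26. The 3 tested genes without a call were TNFAIP8 (log2 fold change 0.20), CCL5 (-1.05) and LIF (-0.20). CCL5 had 124 and 106 shCtrl counts against 11 and 90 shFOXK2 counts. With replicate number as a block CCL5 was called lower (-1.43, edgeR adjusted p = 0.00567), and leaving out shFOXK2 replicate 1 gave -0.32 whereas leaving out shFOXK2 replicate 2 gave -2.99. Reads of TNFAIP6, SELE and CXCL10 were too few to test.

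The 34 genes of the complexes next to the receptors (adaptors, caspases, ubiquitin enzymes and kinases) were all tested, and 12 were lower, 1 higher and 21 not called, with a median of -0.36. The 38.2% called was below the 48.4% of all tested genes, so the count is no result about these genes. The 3 largest falls were in TNFAIP3, TNIP1 and CASP10. TNFAIP3, or A20, a ubiquitin-editing enzyme that limits NF-κB signaling, had 3290 and 2091 shCtrl counts against 222 and 69 shFOXK2 counts, and fell by 3.85 (edgeR adjusted p = 4.4e-05), or by 5.22 without shFOXK2 replicate 1 and 3.18 without shFOXK2 replicate 2. Its partner TNIP1 had 16943 and 14388 shCtrl counts against 1139 and 1594 shFOXK2 counts, and fell by 3.30 (edgeR adjusted p = 1.27e-06). CASP10, an initiator caspase of death receptors, had 995 and 794 shCtrl counts against 101 and 159 shFOXK2 counts, and fell by 2.57 (edgeR adjusted p = 1.72e-05). MLKL, the membrane-lysing protein of necroptosis, had 619 and 384 shCtrl counts against 1133 and 763 shFOXK2 counts. It rose by 1.23 (edgeR adjusted p = 0.00526), with an adjusted p of up to 0.124 when a single library was left out. TNFAIP3 and BIRC3 belong to both lists. Without shFOXK2 replicate 2 the number called in this list was 7 instead of 13.

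Genes of the same step of the receptor complexes had different calls, and the differences between them were not tested. FADD, the adaptor that joins death receptors to caspases, fell by 1.14 (edgeR adjusted p = 0.0109), though without shFOXK2 replicate 2 the value was -0.80 and not called (edgeR adjusted p = 0.0969). CASP8, the caspase it binds, had a log2 fold change of -0.07 (edgeR adjusted p = 0.835). CFLAR, the inhibitor of CASP8 known as FLIP, had 0.05 (edgeR adjusted p = 0.890) and the kinase RIPK1 had -0.57 (edgeR adjusted p = 0.0767). BIRC3, a ubiquitin ligase bound by TRAF2, fell by 2.45 (edgeR adjusted p = 0.000237), but its shCtrl libraries differed widely. It fell by 1.56 without shCtrl replicate 1, and fell by 3.08 without shCtrl replicate 2. The value of BIRC3 was -3.49 after the adenine correction. Its paralog BIRC2 had 0.01 (edgeR adjusted p = 0.982), and -0.53 to 0.39 with a library left out. BIRC2 was -0.72 with the GC correction, and 1 alternative, the adenine correction with the block, called it lower (edgeR adjusted p = 0.0139). CYLD, a deubiquitinase, fell by 1.54 (edgeR adjusted p = 0.00137).

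**Figure D4:**
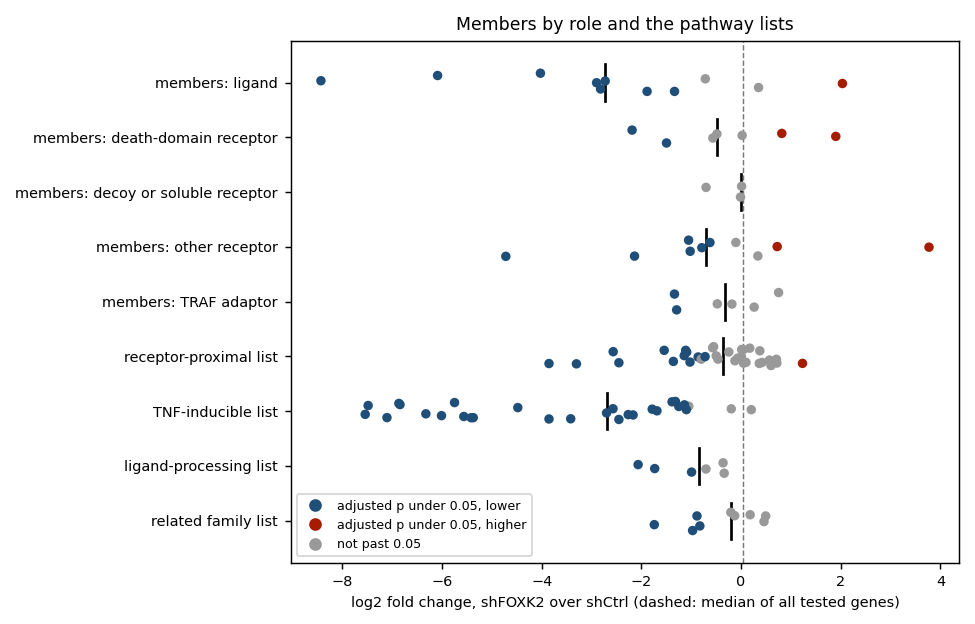
Log2 fold change (shFOXK2 over shCtrl, horizontal axis) of every tested gene in the members, by role, and in the 4 pathway lists; blue and red points passed the test as lower and higher, black bars are medians and the dashed line is the median of all tested genes, 0.04. The TNF-inducible genes center on -2.70, the ligands on -2.73 and the receptor-proximal genes on -0.36.

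Among 6 genes that process ligands and receptors, 3 were lower and 3 were not called, with a median of -0.85, and this share of 50% was near the 48.4% called among all genes. ADAM17, the protease that sheds TNF and TNF receptors, had 2736 and 1432 shCtrl counts against 407 and 401 shFOXK2 counts, and fell by 2.07 (SE 0.28, edgeR adjusted p = 6.97e-05). RHBDF2, or iRhom2, which brings ADAM17 to the cell surface, had 3004 and 2274 shCtrl counts against 671 and 655 shFOXK2 counts, and fell by 1.73 (SE 0.25, edgeR adjusted p = 0.000128). FURIN, which cleaves proproteins including some TNF ligands, fell by 0.99 (edgeR adjusted p = 0.00294). In ADAM17 and RHBDF2 both shFOXK2 libraries were far below both shCtrl libraries.

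Of 10 related genes outside the symbol rule 9 were tested, 4 were lower and 5 not called, with a median of -0.21, and the 44.4% called was near the 48.4% of all genes. TRAFD1, which carries a TRAF-type zinc finger, fell by 1.74 (edgeR adjusted p = 0.000181), EDARADD, the adaptor of the ectodysplasin receptor, by 0.97 (edgeR adjusted p = 0.0209), TRAF7 by 0.89 (edgeR adjusted p = 0.00805) and TRAF3IP2 by 0.83 (edgeR adjusted p = 0.0225). A library left out ended the call of EDARADD (adjusted p up to 0.0759, without shFOXK2 replicate 1), and of TRAF7 (0.0643) and TRAF3IP2 (0.167), both without shFOXK2 replicate 2. The ectodysplasin ligand EDA and its receptor EDAR were not called (0.46 and 0.18).

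Fold changes in these libraries moved with the base content of transcripts. Among tested protein-coding genes with an adenine content of at least 30% the median log2 fold change was 0.73 (2576 genes), and it was -0.30 below 20% (2046 genes), -0.38 from 20% to 25% (3662 genes) and -0.13 from 25% to 30% (4438 genes). A correction that removes this trend moved the median of all genes by 0.15. It changed the call of 7 members: TNFSF13B, LTBR and TNFRSF14 lost theirs, and TNFRSF11B, TNFRSF1B, TRAF2 and TNFRSF10A-AS1 gained one. TNFSF10, at 33.6% adenine, was -4.26 after it instead of -2.90. LTB was -5.72, TNFRSF9 and TNFRSF10B stayed called, and 25 members were called instead of 24, of which 21 were the same. The part of base content in the values of the knockdown was not tested further.

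**Figure D5:**
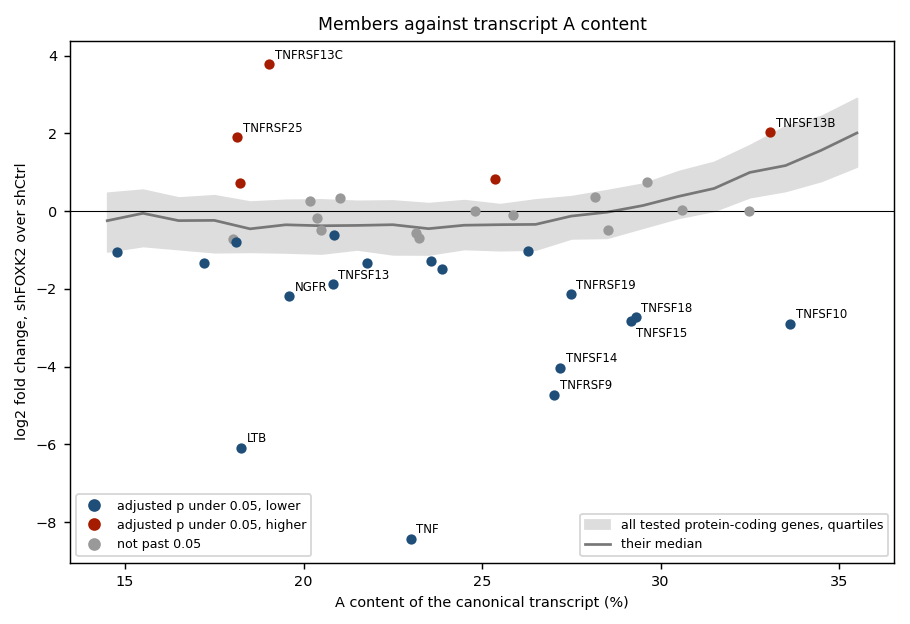
Log2 fold change (shFOXK2 over shCtrl) of the tested protein-coding members against the adenine content of the canonical transcript (percent); points are members colored by call, the gray line is the median of all tested protein-coding genes and the band their quartiles. The gray line turns upward near 30% adenine, where TNFSF13B lies above 0 and TNFSF10 below.

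Markers of other cell types moved with the group as well. Leukocyte markers summed to 25.4 and 30.6 CPM in shCtrl and 9.14 and 11.0 in shFOXK2. PTPRC, CD3E, CD2 and MS4A1 of this list were at 0 to 3 counts, and CD14 (389 and 358 against 124 and 168 counts) and ITGAM (161 and 130 against 3 and 22) made up much of the sum. Endothelial markers summed to 10.6 and 7.72 CPM in shCtrl and 0.633 and 1.98 in shFOXK2. Mesenchymal markers summed to 20.4 and 18.9 CPM in shCtrl and 16.4 and 13.5 in shFOXK2, mostly from COL1A1, and PDGFRB of this list had 127 and 87 shCtrl counts against 2 and 8 shFOXK2 counts. Intestinal markers summed to 9.06 to 14.3 CPM and overlapped between the groups, and CDX2, an intestinal transcription factor, was read 125 to 230 times. In bulk RNA fewer cells of a type and less RNA per cell cannot be told apart, and the part of these markers in the members' values was not tested.

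Of the 24 called members, 14 were called in every alternative that could test them and in each of the 4 fits without a single library: TNF, LTB, TNFSF10, TNFSF13, TNFSF14, TNFSF15, TNFSF18, TNFRSF10B, TNFRSF25, NGFR, TNFRSF9, TNFRSF13C, TNFRSF19 and TNFRSF14-AS1.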

How the data were processed

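RNA of 4 OVCAR5 libraries (2 shCtrl, 2 shFOXK2) was analysed. The deposited values are raw counts, with a table of gene symbols for each library. The authors made them from single-end reads that they aligned to hg38 with STAR 2.5.2 and counted with HTSeq. The HTSeq version, the annotation and the strand setting are not given in the sources used here. Groups and replicate numbers came from the sample titles. The members and gene lists were chosen with earlier results of these data known.

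Genes were filtered with filterByExpr, scaled with TMM and compared with the 2-sided quasi-likelihood F test of edgeR 4.0.16 (R 4.3.3), with Benjamini-Hochberg adjustment over 16417 genes and a threshold of 0.05. The SE was obtained from the log2 fold change and the F statistic. DESeq2 1.42.0 was an alternative. CPM values are means ± SD of 2 libraries. Levels per length use canonical GENCODE transcripts (hg38), whose base content gave the adenine and GC corrections (lowess, span 0.2). The NF-κB consensus and TGTTTAC were searched in RefSeq promoters (GRCh38.p14).

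Every tested member was to be named, with counts per library for those called with a change of at least 2-fold and for those not called at a mean of at least 10 CPM, and from each list the 3 largest called rises and falls. Replicates differed by more than sampling noise (chi-square per gene 38.1 in shCtrl and 27.9 in shFOXK2). Floors and intervals cover counting error only, because PCR reads without molecular identifiers are not independent molecules. The fits were also run on simulated data with the same dispersion for every gene and few changed genes. That run gives no error rate for these libraries. Same-numbered libraries did not deviate together (correlation -0.113). With 2 libraries against 2, an exact permutation cannot go below p = 0.333, so the adjusted p-values rest on variance shared between genes.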

Additional observations from a re-analysis of the deposited data

How the results depend on the processing

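Counts of called genes moved most under 2 choices. When a change of at least 2-fold was itself tested (glmTreat), called members went from 24 to 15, lower members from 19 to 12, higher members from 5 to 3, receptor-proximal genes from 13 to 4, related genes from 4 to 1, all genes from 7940 to 3386 and all higher genes from 4219 to 2056. A minimum of 10 counts in each of the 4 libraries removes genes that fell to few reads, and 14 members (10 lower) and 17 instead of 26 TNF-inducible genes were called. The replicate block gave 22 called members (17 lower, 5 higher), and LTBR and TNFRSF14 lost their calls. The crossed pairing, chosen after seeing the data, gave 26. With library size alone 22 members were called, with DESeq2 25, with no filter 24, and with the GC correction 24.

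Leaving out a library in turn gave 21 to 23 called members, 17 to 19 lower and 3 to 5 higher, where 3 was without shFOXK2 replicate 1. It gave 7 to 15 receptor-proximal genes, 26 to 27 TNF-inducible genes, 3 to 4 ligand-processing genes, 2 to 4 related genes (2 without shFOXK2 replicate 2), 6771 to 7775 genes in all and 3454 to 4224 higher genes. A library left alone is assumed to vary like the other group. The FOXK2 log2 fold change ran from -0.57 to -0.22 there, and was -0.056 with the GC correction, -0.021 with the adenine correction and -0.024 with that and the block.

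Members near no change turned sign, and none of them had a call before. TNFSF4 was -0.10 with the GC correction. FAS was -0.083 without the filter, -0.61 with the GC correction, -0.40 with the adenine correction and -0.37 with that and the block. TNFRSF10D was -0.010 with either DESeq2 choice, -0.091 without the filter, -0.038 with the block and -0.040 with crossed numbers. TNFRSF11B was 0.025 with library size alone and 0.037 with at least 10 counts. TNFRSF11A was 0.12 (GC), 0.20 (adenine) and 0.21 (adenine and block), and TRAF4 0.12, 0.17 and 0.17. TNFRSF10A-AS1 was -0.033 without the filter, -0.026 with the block, -1.05 (GC), -1.65 (adenine) and -1.78 (adenine and block). With a library left out the ranges were -1.57 to 1.04 for TNFSF4, -0.45 to 0.61 for FAS, -0.46 to 0.32 for TNFRSF10D, -0.13 to 0.0079 for TNFRSF11B, -0.35 to 0.059 for TNFRSF11A, -0.47 to 0.0054 for TRAF4 and -0.68 to 0.48 for TNFRSF10A-AS1. The cause was not tested. Over the alternatives that keep all 4 libraries, 358 other values of single members kept direction and side of the threshold, 25 lost a call and 13 gained one. Depth limits the members under about 20 counts a library.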

Other observations

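Several members lie in the same region of a chromosome, some of them far apart within it. Their calls are given here as values without a test. On chromosome 6 (31572054 to 31582522, hg38) TNF and LTB were both lower and LTA was too low to test. On chromosome 19 (6531026 to 6670588) TNFSF9 and TNFSF14 were both lower and CD70 was too low to test. On chromosome 1 (1203508 to 2565382) TNFRSF18, TNFRSF14 and TNFRSF14-AS1 were all lower and TNFRSF4 was too low to test. TNFRSF18 ends at 1206592 and TNFRSF14 starts at 2555639, so they are not neighbors. The TNFRSF14-AS1 reads overlap those of TNFRSF14. Members of other regions had different calls. On chromosome 1 (6460786 to 7943165) TNFRSF25, which ends at 6466175, was higher and TNFRSF9, which starts at 7915871, was lower. On chromosome 8 (23020133 to 23225102) TNFRSF10B was lower and TNFRSF10A higher. TNFRSF10C, TNFRSF10D and the antisense transcript TNFRSF10A-AS1 there were not called. A lower member shared its region with a tested member that was not called on chromosome 1 (TNFSF18 with TNFSF4), chromosome 12 (LTBR with TNFRSF1A) and chromosome 17 (TNFSF13 with TNFSF12).

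Pairs of ligand and receptor were lower together for TNFSF9 with TNFRSF9, TNFSF18 with TNFRSF18 and LTB with LTBR, higher together for TNFSF13B with TNFRSF13C, and opposite for TNFSF15 with TNFRSF25 and for TNFSF10 with TNFRSF10A, while TNFSF10 and TNFRSF10B were both lower. TNF was lower with TNFRSF1A and TNFRSF1B not called, and TNFRSF12A was higher with its ligand TNFSF12 not called. TNFSF14 and its receptors LTBR and TNFRSF14 were all lower. The LTBR, TNFRSF14 and TNFSF13B calls were lost with the adenine correction, at log2 fold changes of -0.28, -0.43 and 0.81. With a library left out, TNFRSF10A ran from 0.71 to 0.84, TNFRSF12A from 0.47 to 0.92 and TNFRSF18 from -1.35 to -0.87.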
